A study of Homo sapiens with 9 samples.

Results

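The 43 genes described here encode the subunits of the transcription factor NF-kB, its feedback inhibitors, and the chemokines, cytokines, acute phase proteins and other inflammatory products known as NF-kB targets. They were taken by symbol from a list of names, which was drawn up with earlier results of these data known. All 43 were present among the 23710 genes of the count table. Of the 43, 22 encode secreted proteins and 12 encode NF-kB subunits, feedback inhibitors or proteins of the IkB family. The samples are MDA-MB-231 cells, a long-established human line of triple-negative breast cancer, profiled by mRNA sequencing. All cells, controls included, had been transduced with a lentivirus made from the pGIPZ hairpin vector. The 3 groups carried shUGDH-1 or shUGDH-2, separate hairpins against UGDH, or shNT, a non-targeting hairpin, with 3 libraries each. The UGDH protein is UDP-glucose dehydrogenase, which makes UDP-glucuronate, a building block of hyaluronan and other glycosaminoglycans. The labels call the cultures biological replicates but do not say whether each was transduced separately or whether a group derives from 1 clone, so the p-values below reflect the spread among these libraries, which may be technical.

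NF-kB is a family of dimers built from RELA, RELB, REL and the processed products of NFKB1 and NFKB2. In resting cells IkB proteins hold the dimers in the cytoplasm, and signals from receptors for TNF, interleukin 1 or microbial products lead to the degradation of IkB and the release of the dimers into the nucleus. There they bind kB sites and drive inflammatory genes together with genes of their own inhibitors, such as NFKBIA and TNFAIP3. MDA-MB-231 cells are known for constitutive NF-kB activity and for secreting IL6, IL8 and CSF2 without an added stimulus.

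The hairpin sequences are shown because they define the groups, and are given as the labels print them.
shUGDH-1: ttgcatcaaatatgcgacg
shUGDH-2: atatacttcagatctgctg
shNT: atctcgcttgggcgagagtaag

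Promoter windows of selected members follow, since the data for genes with near-identical kB sites differ. They were read from the RefSeq promoter table for GRCh38.p14, a build other than the hg19 of the counts. The table covers 250 bases before to 50 bases after an annotated start, and 33 of the 43 members had an entry. Both strands were searched for the kB decamer, the general 10-base consensus of NF-kB sites, and for the 9-base motif GGAATTTCC of the IL8 promoter, which can lie within a decamer. Each window is written 5′ to 3′ along the strand of its gene, with the match in capitals and 10 bases on either side.
CXCL1: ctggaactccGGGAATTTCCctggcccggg
CXCL2: ctggagctccGGGAATTTCCctggcccggg
CXCL3: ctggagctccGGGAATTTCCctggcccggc
IL8: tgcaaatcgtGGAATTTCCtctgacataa
IL6: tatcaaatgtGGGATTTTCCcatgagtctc
LCN2: cagcactccgGGAATGTCCCtcactctccc
NFKB1: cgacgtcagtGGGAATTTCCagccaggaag
NFKBIA: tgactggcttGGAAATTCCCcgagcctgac
TNFAIP3: acgtgactttGGAAAGTCCCgtggaaatcc
TNIP1: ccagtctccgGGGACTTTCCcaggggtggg
ICAM1: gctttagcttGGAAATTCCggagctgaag

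The CXCL1 match lies on the plus strand at chr4:73869314-73869323, and those of CXCL2 and CXCL3 lie on the minus strand at chr4:74099264-74099273 and chr4:74038759-74038768. They begin 79, 78 and 79 bases before the annotated starts. The 30-base windows of CXCL1 and CXCL3 are identical at 28 positions, and that of CXCL2 shares 29 with each of them. The wider promoter windows, aligned at the match without gaps, are less alike. CXCL1 and CXCL3 share 68.7% of these bases, CXCL1 and CXCL2 43.8%, and CXCL2 and CXCL3 44.5%. The IL8 match begins 91 bases before the start, at chr4:73740478-73740486 on the plus strand, and the IL6 match 73 bases before it, at chr7:22727127-22727136 on the plus strand. The printed matches of NFKBIA, LCN2, TNFAIP3 and ICAM1 read on the strand opposite to the gene. Another TNFAIP3 decamer begins 55 bases before the start, and part of it lies in the printed flank in lower case. The NFKBIA match, at chr14:35404821-35404830 in a minus-strand gene, begins 81 bases before the start. That of LCN2, at chr9:128149278-128149287 in a plus-strand gene, begins 175 bases before it.

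A kB decamer was found in 19 of the 33 members with an entry, 57.6% of them, and in 13.3% of the 27305 genes in the table. The GGAATTTCC motif was found in 10 members, 30.3%, and in 0.56% of all genes. One or the other was present in 21 members, 63.6%, and in 13.5% of all genes. Counted by promoter, since some genes have several starts, decamers stood in 45.7% of the members' windows and in 11.3% of all windows, and the GGAATTTCC motif in 21.7% and 0.461%. The members were listed as NF-kB genes and known targets, and the GGAATTTCC motif comes from the promoter of IL8, itself a member. Higher shares among the members thus follow in part from how the list and motif were chosen, and are a description. A match describes the letters of this window and is no evidence of binding. Members without an entry were CXCL16, CCL2, CCL5, CSF1, LIF, SAA1, SAA2, RELB, NFKBIE and IER3.

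**Figure D1:**
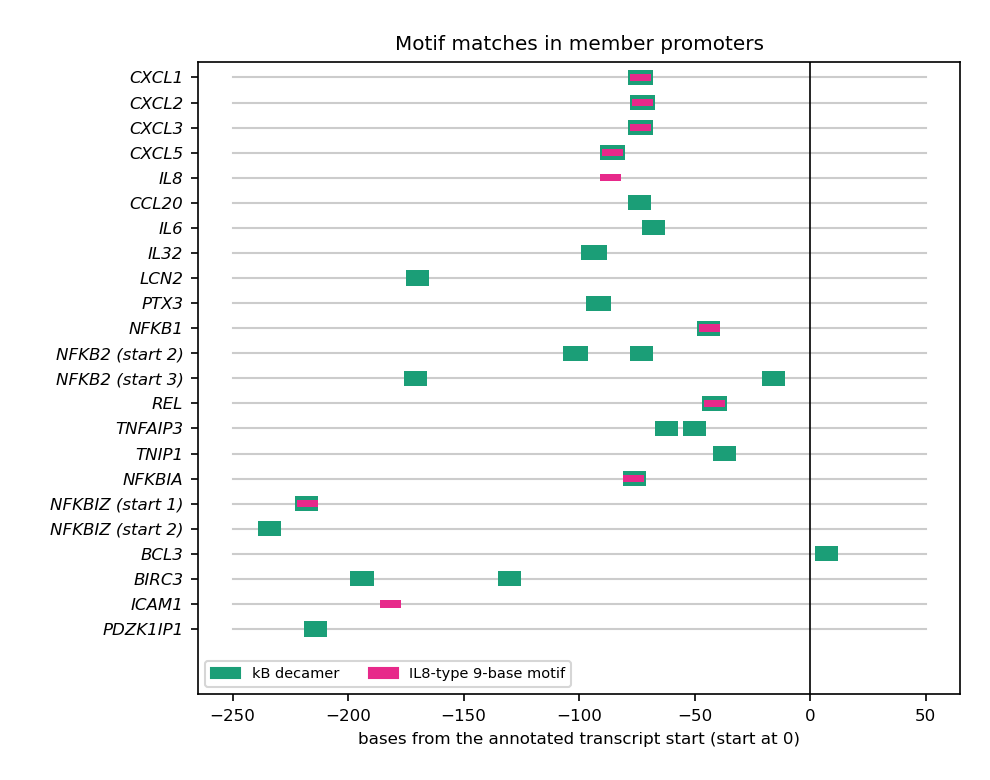
Positions of motif matches in member promoters. The horizontal axis gives bases from the annotated transcript start, grey lines span the 250 bases before and 50 bases after it, wide green bars mark kB decamers and narrow magenta bars GGAATTTCC motifs on either strand. The 21 genes with a match are shown, with a line for each start that holds one, and the matches of CXCL1, CXCL2 and CXCL3 stand within 2 bases of the same place.

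UGDH transcript stood at 7.62, 7.30 and 8.03 CPM with shUGDH-1 and 8.09, 6.62 and 6.79 CPM with shUGDH-2, against 53.0, 55.6 and 50.3 CPM with shNT. Every knockdown library was below every control library, and the difference between the hairpins in remaining UGDH did not pass the test (log2 difference -0.09, SE 0.13, adjusted p = 0.74). CPM scale each count to a library's normalized total and are not corrected for gene length. Adjusted p-values come from quasi-likelihood tests in edgeR, adjusted by Benjamini-Hochberg over all 12546 genes tested. A gene is said to have risen or fallen where its adjusted p is below 0.05, with no minimum fold change. Libraries held 9249738 to 13328002 counts. The MDA-MB-231 mesenchymal markers VIM, CD44, ZEB1, AXL, CAV1 and MSN summed to 7981 to 8040 CPM with shUGDH-1. With shUGDH-2 they summed to 7544 to 7689 CPM, against 7541 to 7670 CPM with shNT, so that only shUGDH-1 was apart. PGR was at 0 in all 9 libraries and 4 of 6 luminal and epithelial markers were under 1 CPM. The luminal list summed to 50.6 to 53.6 CPM with shUGDH-1 and 53.1 to 58.1 CPM with shUGDH-2, against 43.4 to 49.1 CPM with shNT. The leukocyte markers CD3E and TYROBP were at 0 in all libraries, and 7 of the 9 leukocyte markers were under 1 CPM. CD68, a lysosomal protein, made up most of that list at 85.5 ± 2.98 CPM with shUGDH-1 and 88.2 ± 3.58 CPM with shUGDH-2, against 96.0 ± 3.82 CPM with shNT (SD, n = 3 each), and fell with shUGDH-1 (adjusted p = 0.00376) and with shUGDH-2 (adjusted p = 0.0416). CD14 averaged 1.54 to 2.34 CPM and did not pass, and the list without CD68 summed to at most 2.93 CPM. The fibroblast markers DCN and LUM were at 0 in all libraries and 4 of 6 were under 1 CPM, while PDGFRB averaged 20.1 to 22.2 CPM and did not pass. COL1A1 averaged 10.6 ± 0.90 CPM with shUGDH-1 and 13.3 ± 0.81 CPM with shUGDH-2, against 9.89 ± 0.68 CPM with shNT (SD, n = 3 each), and rose with shUGDH-2 (log2 0.42, adjusted p = 0.00353). The fibroblast list summed to 30.6 to 32.6 CPM with shUGDH-1 and 35.3 to 37.0 CPM with shUGDH-2, against 28.1 to 31.4 CPM with shNT. The part of these markers in the results below was not tested. In such bulk samples, fewer cells that express a gene and less of its RNA per cell cannot be told apart.

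Of the 43 members, 41 passed the filter on low counts and were tested. With shUGDH-2, 21 of the 41 rose and 3 fell, where 8.04% of all genes tested rose and 6.81% fell. With shUGDH-1, 8 rose and 7 fell, where 10.5% of all genes rose and 10.3% fell. The members were chosen with earlier results of these data known, so the counts beside these shares are a description. The median log2 fold change of the tested members was -0.02 with shUGDH-1 and 0.18 with shUGDH-2, beside medians of -0.0026 and -0.0059 over all genes tested. Without shNT replicate 3 the members' median with shUGDH-1 was 0.0012. Among the 21 tested genes of secreted proteins, 6 rose and 3 fell in shUGDH-1 cells, while in shUGDH-2 cells 13 rose and 1 fell. Among the 12 subunits, feedback inhibitors and IkB family genes, 1 rose and 3 fell in shUGDH-1 cells, while in shUGDH-2 cells 3 rose and 2 fell. The median log2 fold change of the secreted members was 0.09 with shUGDH-1 and 0.19 with shUGDH-2. That of the 12 subunits, feedback inhibitors and IkB family genes was -0.02 with shUGDH-1 and 0.08 with shUGDH-2. Both contrasts use the same shNT libraries, so their values stand side by side and are not independent of each other.

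The same direction with both hairpins was seen for 6 members that rose (CXCL1, IL1B, LIF, LCN2, TNIP1 and ICAM1) and for 3 that fell (CXCL3, TNFAIP3 and NFKBIA). Of all genes tested, 4.72% rose with both and 3.61% fell with both. IL6 and CSF1 fell with shUGDH-1 and rose with shUGDH-2, a pattern of opposite calls found in 0.422% of all genes tested. A further 4 members of the 41 tested passed with shUGDH-1 alone and 13 with shUGDH-2 alone. Among all 12546 genes tested, 1507 passed with shUGDH-1 alone and 766 with shUGDH-2 alone.

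**Figure D2:**
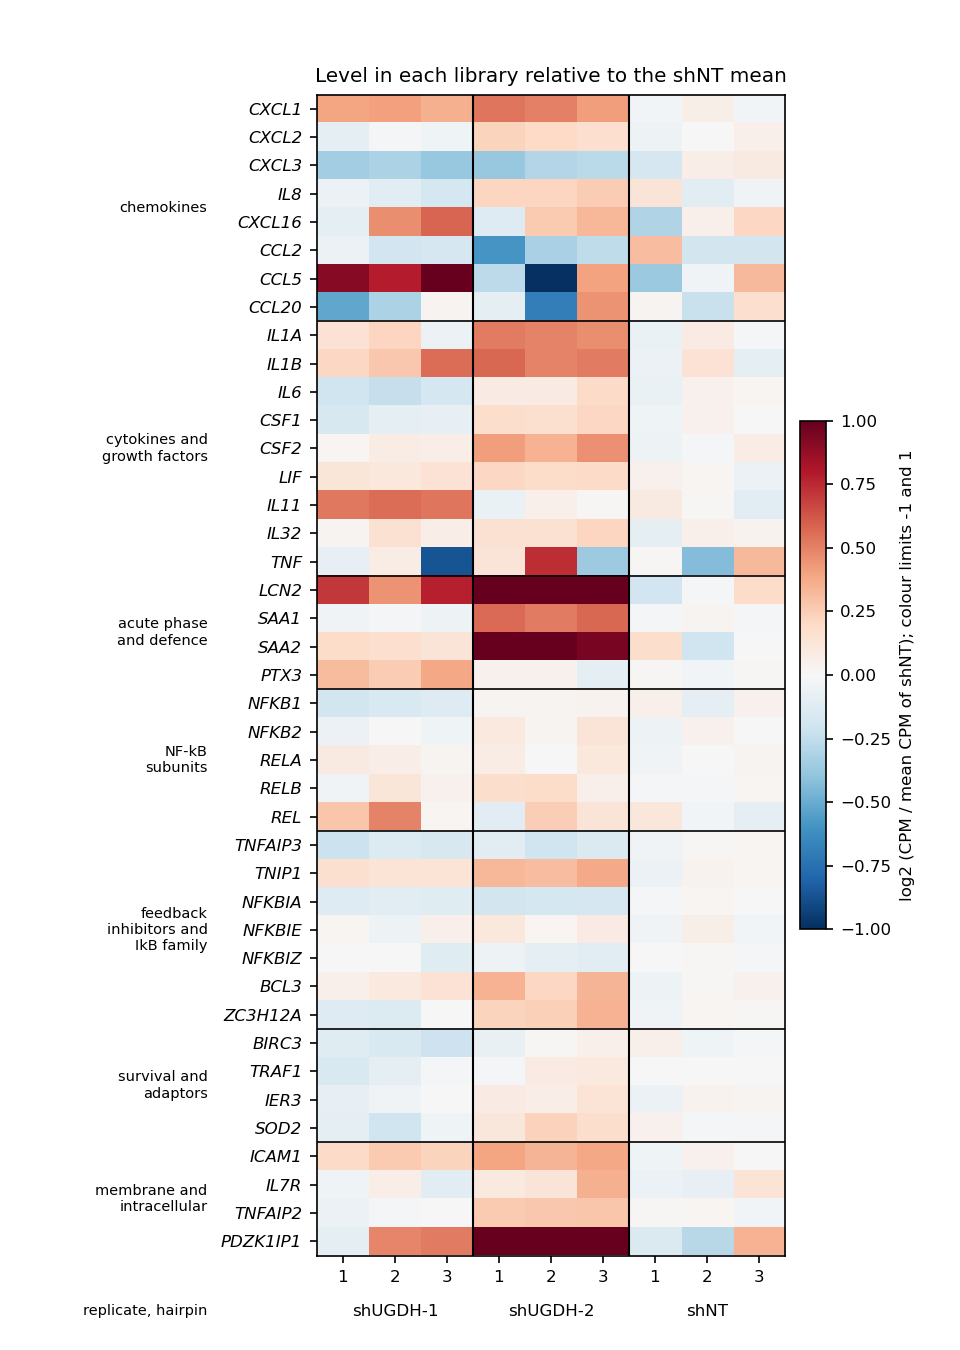
Level of the 41 tested members in each of the 9 libraries. Rows are genes grouped by role, columns are libraries, and colour gives the log2 ratio of the library's CPM to the mean CPM of shNT, limited to -1 and 1. The shUGDH-2 columns are red for LCN2, SAA1, SAA2, CSF2, TNFAIP2 and PDZK1IP1 in all 3 replicates, and those of both hairpins are blue for CXCL3, TNFAIP3 and NFKBIA.

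Of the 4 secreted acute phase and defence proteins, 2 rose in shUGDH-1 cells and 3 rose in shUGDH-2 cells. This count and those by role below stand beside the shares of all genes tested. With shUGDH-1 10.5% rose and 10.3% fell, and with shUGDH-2 8.04% rose and 6.81% fell. LCN2, the lipocalin that binds bacterial iron carriers, had the largest fold change of the 41 tested members with shUGDH-2. It was at 6.39, 5.34 and 6.73 CPM with shUGDH-1 and 15.2, 15.3 and 14.0 CPM with shUGDH-2, against 3.38, 3.83 and 4.43 CPM with shNT. The 3 groups did not overlap. LCN2 rose 1.58-fold with shUGDH-1 (log2 0.66, SE 0.16, adjusted p = 0.00157) and 3.83-fold with shUGDH-2 (log2 1.94, SE 0.13, adjusted p = 2.34e-18), and was 2.43-fold higher with shUGDH-2 than with shUGDH-1 (adjusted p = 8.88e-13).

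SAA1, an acute phase apolipoprotein, stood at 250.3, 255 and 248 CPM with shUGDH-1 and 381, 369 and 382 CPM with shUGDH-2, against 254, 262 and 255 CPM with shNT. Every shUGDH-2 library was above all others, while the shUGDH-1 and shNT libraries overlapped. SAA1 rose 1.47-fold with shUGDH-2 (log2 0.56, SE 0.03, adjusted p = 9.51e-27) and had a log2 value of -0.03 with shUGDH-1 (SE 0.03, adjusted p = 0.496). Its close copy SAA2 was at 33.3, 32.9 and 32.1 CPM with shUGDH-1 and 58.7, 61.5 and 56.7 CPM with shUGDH-2, against 33.2, 25.5 and 29.2 CPM with shNT. SAA2 rose 2.01-fold with shUGDH-2 (log2 1.00, SE 0.06, adjusted p = 4.48e-20), and its log2 value with shUGDH-1 was 0.16 (SE 0.07, adjusted p = 0.107). Without shNT replicate 1, the highest control library for SAA2, that value was 0.26 (adjusted p = 0.00666). SAA1 and SAA2 are near-identical, and how reads that match both were counted is not given in the sources used here, so the share of each is uncertain.

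PTX3, a secreted pentraxin of innate defence, showed the reverse order of hairpins. It stood at 126, 120.3 and 132 CPM with shUGDH-1 and 104, 104 and 94.2 CPM with shUGDH-2, against 102, 99.0 and 102 CPM with shNT. Only the shUGDH-1 libraries were apart from the rest. PTX3 rose 1.24-fold with shUGDH-1 (log2 0.32, SE 0.04, adjusted p = 6.93e-09) and was lower with shUGDH-2 than with shUGDH-1 (log2 difference -0.32, SE 0.04, adjusted p = 1.07e-08). Summed over these 4 genes, the level was 416 ± 2.86 CPM with shUGDH-1 and 552 ± 6.45 CPM with shUGDH-2, against 391 ± 1.12 CPM with shNT (SD, n = 3 each).

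Of the 9 cytokines and growth factors, shUGDH-1 cells had 3 that rose and 2 that fell, and 7 rose in shUGDH-2 cells. IL1A and IL1B, which encode the 2 forms of interleukin 1, both rose with shUGDH-2. IL1A was at 22.7, 23.8 and 19.6 CPM with shUGDH-1 and 29.4, 29.03 and 28.3 CPM with shUGDH-2, against 19.6, 21.7 and 20.3 CPM with shNT. IL1B was at 22.8, 23.9 and 29.2 CPM with shUGDH-1 and 29.5, 27.9 and 28.4 CPM with shUGDH-2, against 19.0, 21.9 and 18.4 CPM with shNT. For IL1A the shUGDH-1 and shNT libraries overlapped, and for IL1B every knockdown library was above every control. IL1A rose 1.41-fold with shUGDH-2 (log2 0.50, SE 0.08, adjusted p = 1.32e-06) and had a log2 value of 0.12 with shUGDH-1 (adjusted p = 0.316). IL1B rose 1.26-fold with shUGDH-1 (log2 0.34, SE 0.08, adjusted p = 0.00169) and 1.45-fold with shUGDH-2 (log2 0.53, SE 0.08, adjusted p = 1.04e-06).

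The colony-stimulating factors drive the growth and maturation of myeloid cells. CSF2 (GM-CSF) stood at 284, 295 and 294 CPM with shUGDH-1 and 374, 356 and 384 CPM with shUGDH-2, against 270.5, 276 and 295 CPM with shNT, so that only shUGDH-2 was apart. It rose 1.33-fold with shUGDH-2 (log2 0.41, SE 0.03, adjusted p = 4.99e-17) and had a log2 value of 0.06 with shUGDH-1 (adjusted p = 0.181), or 0.09 without shNT replicate 3 (adjusted p = 0.0287). CSF1, which supports macrophages, was at 425, 446 and 448 CPM with shUGDH-1 and 535, 530.2 and 547 CPM with shUGDH-2, against 460.4, 488 and 474 CPM with shNT. The controls lay between the hairpins with no overlap on either side. CSF1 fell by 7.3% with shUGDH-1 (log2 -0.11, SE 0.02, adjusted p = 0.000278) and rose by 13.4% with shUGDH-2 (log2 0.18, SE 0.02, adjusted p = 1.07e-08).

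IL6, LIF and IL11 belong to the IL6 family, whose members signal through the shared receptor chain encoded by IL6ST. IL6 was at 314.5, 309 and 319.8 CPM with shUGDH-1 and 382, 382 and 412 CPM with shUGDH-2, against 346, 374 and 366 CPM with shNT. Like CSF1, its controls lay between the hairpins without overlap. IL6 fell by 13.2% with shUGDH-1 (log2 -0.20, SE 0.03, adjusted p = 1.87e-07) and rose by 8.47% with shUGDH-2 (log2 0.12, SE 0.03, adjusted p = 0.00176). In the authors' deposited table the shUGDH-2 value of IL6 was 0.12 on the log2 scale with an adjusted p of 0.081. IL11 was at 42.5, 43.3 and 42.8 CPM with shUGDH-1 and 28.1, 30.5 and 29.6 CPM with shUGDH-2, against 31.3, 29.7 and 27.3 CPM with shNT. It rose 1.46-fold with shUGDH-1 (log2 0.54, SE 0.06, adjusted p = 6.2e-10), while its shUGDH-2 and shNT libraries overlapped and its log2 value was -0.0023 (adjusted p = 0.988). LIF stood at 148, 147 and 151 CPM with shUGDH-1 and 157, 155 and 156 CPM with shUGDH-2, against 140.3, 138 and 131 CPM with shNT, and rose by 8.76% with shUGDH-1 (adjusted p = 0.00655) and by 14.3% with shUGDH-2 (adjusted p = 1.95e-05). The adjusted p with shUGDH-1 was 0.073 without shNT replicate 3, the lowest control library for LIF.

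IL32, a cytokine that induces other cytokines in human cells, was at 52.8, 57.7 and 54.3 CPM with shUGDH-1 and 57.6, 57.6 and 60.4 CPM with shUGDH-2, against 48.8, 53.7 and 53.2 CPM with shNT. The shUGDH-2 libraries lay above the controls, and IL32 rose by 13.0% there (log2 0.18, SE 0.05, adjusted p = 0.0141). That adjusted p was 0.125 without shNT replicate 1, 0.0782 without shUGDH-2 replicate 3 and 0.089 with DESeq2. In the authors' deposited table it was 0.0362. TNF itself, the classic inducer of NF-kB, was near the limit of measurement, with 1.00, 1.13 and 0.543 CPM with shUGDH-1 and 1.18, 1.85 and 0.808 CPM with shUGDH-2, against 1.07, 0.765 and 1.36 CPM with shNT. Its groups overlapped, and its log2 values were -0.20 (SE 0.37) with shUGDH-1 and 0.27 (SE 0.34) with shUGDH-2. The summed level of the 9 genes was 1340 ± 23.5 CPM with shUGDH-1 and 1604 ± 39.3 CPM with shUGDH-2, against 1376 ± 34.9 CPM with shNT (SD, n = 3 each).

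Of the 9 chemokine genes, 8 were tested. With shUGDH-1 CXCL1 rose and CXCL3 fell, and with shUGDH-2 CXCL1, CXCL2 and IL8 rose and CXCL3 fell. These neighbours on chromosome 4 encode ligands of the neutrophil receptors CXCR1 and CXCR2. CXCL1 was at 31.3, 31.7 and 30.5 CPM with shUGDH-1 and 34.6, 33.8 and 31.8 CPM with shUGDH-2, against 23.4, 24.7 and 23.3 CPM with shNT. CXCL3 was at 23.6, 24.1 and 23.1 CPM with shUGDH-1 and 23.2, 24.6 and 25.0 CPM with shUGDH-2, against 26.7, 31.5 and 32.0 CPM with shNT. All knockdown libraries thus lay above the controls for CXCL1 and below them for CXCL3. CXCL1 rose 1.31-fold with shUGDH-1 (log2 0.39, SE 0.07, adjusted p = 1.45e-05) and 1.40-fold with shUGDH-2 (log2 0.49, SE 0.07, adjusted p = 1.58e-07). CXCL3 fell by 0.34 on the log2 scale with shUGDH-1 (SE 0.07, adjusted p = 0.000331) and by 0.31 with shUGDH-2 (SE 0.07, adjusted p = 0.00181). Their kB windows, printed above, differ at 2 of 30 bases, and their wider promoter windows are identical at 68.7% of bases. The part of these sequences in the changes was not tested.

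CXCL2 stood at 176, 187 and 184 CPM with shUGDH-1 and 221, 216 and 212 CPM with shUGDH-2, against 182, 189 and 196 CPM with shNT. It rose by 14.7% with shUGDH-2 (log2 0.20, SE 0.03, adjusted p = 1.84e-06), above both other groups, and had a log2 value of -0.05 with shUGDH-1 (adjusted p = 0.286). CXCL1, CXCL2 and CXCL3 are close copies in sequence, so reads that match more than 1 of them leave their separate counts uncertain. IL8, now named CXCL8, was at 262, 254 and 242 CPM with shUGDH-1 and 316, 318 and 325 CPM with shUGDH-2, against 299, 254 and 267 CPM with shNT. The shUGDH-2 libraries were the highest and the controls were widely spread. IL8 rose by 16.9% with shUGDH-2 (log2 0.23, SE 0.05, adjusted p = 0.0244), which became 0.0559 without shNT replicate 3, and 0.0649, 0.0688 and 0.0901 without shUGDH-2 replicates 1, 2 and 3. With shUGDH-1 its log2 value was -0.11 (SE 0.06, adjusted p = 0.216), or -0.16 without shNT replicate 2 (adjusted p = 0.00078) and -0.11 with no filter on low counts (adjusted p = 0.00275).

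The other chemokine genes were low and did not pass against shNT. CXCL16, CCL2 and CCL20 had group means of 1.50 to 3.68 CPM, with log2 values from -0.41 (CCL2 with shUGDH-2, SE 0.25) to 0.34 (CXCL16 with shUGDH-1, SE 0.21). CCL5 passed the low-count filter through the shUGDH-1 libraries alone, with 14, 13 and 11 counts there and 5, 2 and 9 counts with shUGDH-2, against 5, 6 and 8 counts with shNT. Its log2 difference between shUGDH-2 and shUGDH-1 was -1.30 (SE 0.44, adjusted p = 0.0434), given as a description because of that filter. The adjusted p was 0.0623 with no filter and 0.0508 to 0.279 when shNT replicate 3, any shUGDH-1 library, or shUGDH-2 replicate 1 or 2 was left out, and DESeq2 gave none. CXCL5 had 1 count in all 9 libraries, in shNT replicate 3, and was not tested. Summed over the 9 genes, chemokine transcripts stood at 498 ± 8.64 CPM with shUGDH-1 and 601 ± 1.80 CPM with shUGDH-2, against 523 ± 16.5 CPM with shNT (SD, n = 3 each).

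**Figure D3:**
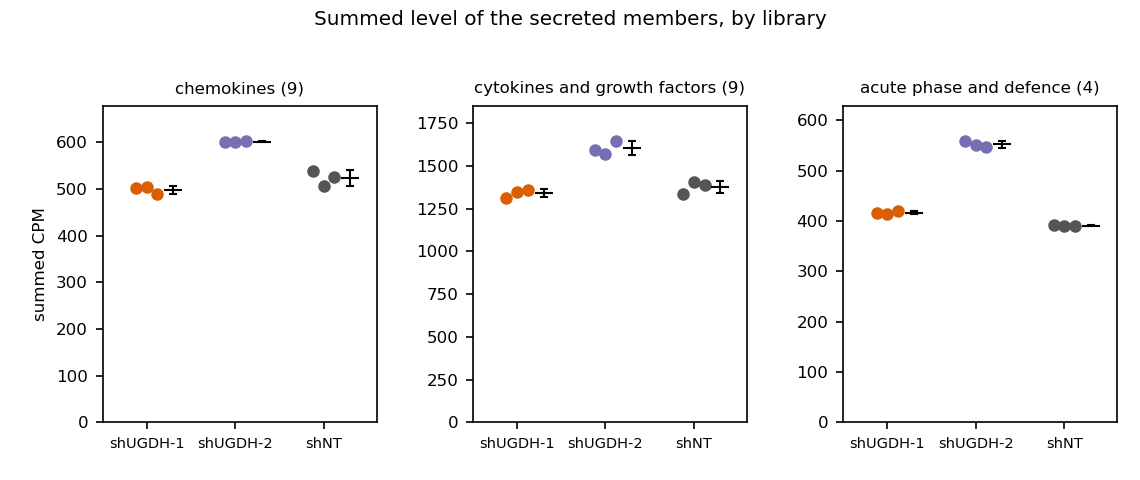
Summed level of the genes of secreted members in each library, for the 9 chemokines, the 9 cytokines and growth factors and the 4 acute phase and defence proteins. The vertical axis gives summed CPM, points are libraries, and bars beside them give the mean and SD of 3 libraries. The 3 shUGDH-2 libraries lie above all others in each panel, and the shUGDH-1 libraries lie above the shNT libraries only for the acute phase and defence proteins.

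Over all 22 genes of secreted members, the summed level was 2231, 2265 and 2268 CPM with shUGDH-1 and 2756, 2719 and 2797 CPM with shUGDH-2, against 2267, 2300 and 2303 CPM with shNT. The shUGDH-2 libraries were apart and the others overlapped. CSF1, IL6, CSF2, IL8 and SAA1 make up most of these sums.

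The 5 NF-kB subunit genes changed little. NFKB1, the gene of p105 and its product p50, was at 79.2, 81.2 and 82.5 CPM with shUGDH-1 and 92.0, 91.7 and 92.3 CPM with shUGDH-2, against 93.2, 84.6 and 92.7 CPM with shNT. It fell by 10.4% with shUGDH-1 (log2 -0.16, SE 0.04, adjusted p = 0.0049), below both other groups, and had a log2 value of 0.03 with shUGDH-2 (adjusted p = 0.732). NFKB2, the gene of p100 and p52, was at 183, 189.8 and 185 CPM with shUGDH-1 and 204, 194 and 208 CPM with shUGDH-2, against 184, 197 and 192 CPM with shNT. Its log2 values were -0.03 with shUGDH-1 (adjusted p = 0.499) and 0.09 with shUGDH-2 (adjusted p = 0.0524), and it was higher with shUGDH-2 than with shUGDH-1 by 0.12 (adjusted p = 0.00551). That difference gave adjusted p-values of 0.0556 without shUGDH-1 replicate 1 and 0.0644 without shUGDH-2 replicate 3.

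RELA, the main activating subunit, averaged 238 ± 5.33 CPM with shUGDH-1 and 238 ± 9.46 CPM with shUGDH-2, against 228 ± 5.17 CPM with shNT (SD, n = 3 each). Its log2 values of 0.06 with each hairpin did not pass. RELB averaged 59.2 ± 3.16 CPM with shUGDH-1 and 63.2 ± 3.30 CPM with shUGDH-2, against 57.4 ± 0.83 CPM with shNT, and REL averaged 7.16 ± 1.19 CPM with shUGDH-1 and 6.32 ± 0.78 CPM with shUGDH-2, against 5.90 ± 0.43 CPM with shNT (SD, n = 3 each). RELB had a log2 value of 0.14 with shUGDH-2 (SE 0.05, adjusted p = 0.0533) and REL one of 0.30 with shUGDH-1 (SE 0.15, adjusted p = 0.145). With shUGDH-2, 0 of the 5 subunits passed by edgeR or by DESeq2, and 2 had an unadjusted p under 0.05, both upward. Single-library omissions brought NFKB2, RELA or RELB below 0.05 with shUGDH-2, with adjusted p-values of 0.0183 to 0.0499. NFKB2 also passed there in edgeR with the size factors of DESeq2 (adjusted p = 0.0495) and with no filter on low counts (adjusted p = 0.0407). The log2 values over the 5 genes ran from -0.16 to 0.30 with shUGDH-1 and from 0.03 to 0.14 with shUGDH-2.

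The 7 feedback inhibitors and IkB family genes moved in both directions. NFKBIA encodes IkB-alpha, the inhibitor that NF-kB itself induces most rapidly. It stood at 563, 574 and 568 CPM with shUGDH-1 and 544, 546 and 548 CPM with shUGDH-2, against 609.5, 624 and 616 CPM with shNT. All knockdown libraries were below all controls, and NFKBIA fell by 7.79% with shUGDH-1 (log2 -0.12, SE 0.02, adjusted p = 9.18e-06) and by 11.4% with shUGDH-2 (log2 -0.17, SE 0.02, adjusted p = 9.04e-10). TNFAIP3, the gene of the ubiquitin-editing inhibitor A20, was at 108, 114 and 112 CPM with shUGDH-1 and 117, 109 and 114 CPM with shUGDH-2, against 122, 127 and 127 CPM with shNT. TNFAIP3 fell by 11.1% with shUGDH-1 (log2 -0.17, SE 0.04, adjusted p = 0.000419) and fell by 9.65% with shUGDH-2 (log2 -0.15, SE 0.04, adjusted p = 0.0035), again with no overlap.

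TNIP1, which encodes a ubiquitin-binding partner of A20, rose with both hairpins. It was at 342, 338 and 337 CPM with shUGDH-1 and 386, 379.8 and 399 CPM with shUGDH-2, against 294, 314 and 312 CPM with shNT. The fold changes were 1.11 with shUGDH-1 (log2 0.15, SE 0.03, adjusted p = 1.3e-05) and 1.27 with shUGDH-2 (log2 0.34, SE 0.03, adjusted p = 7.4e-17). BCL3, an atypical nuclear IkB protein that works as a co-regulator, was at 58.8, 60.9 and 62.8 CPM with shUGDH-1 and 72.2, 65.5 and 72.0 CPM with shUGDH-2, against 54.9, 57.3 and 58.4 CPM with shNT. It rose 1.23-fold with shUGDH-2 (adjusted p = 7.53e-06). ZC3H12A encodes regnase-1, an RNase that degrades cytokine mRNAs such as that of IL6, and stood at 98.1, 97.2 and 108 CPM with shUGDH-1 and 125, 126 and 136 CPM with shUGDH-2, against 105, 108 and 108 CPM with shNT. ZC3H12A rose 1.21-fold with shUGDH-2 (adjusted p = 3.14e-07). With shUGDH-1 its log2 value was -0.09 (adjusted p = 0.117), or -0.13 without shUGDH-1 replicate 3 (adjusted p = 0.0355). NFKBIE and NFKBIZ, an inhibitory and a nuclear IkB protein, did not pass, with log2 values from -0.08 (NFKBIZ with shUGDH-2) to 0.07 (NFKBIE with shUGDH-2).

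**Figure D4:**
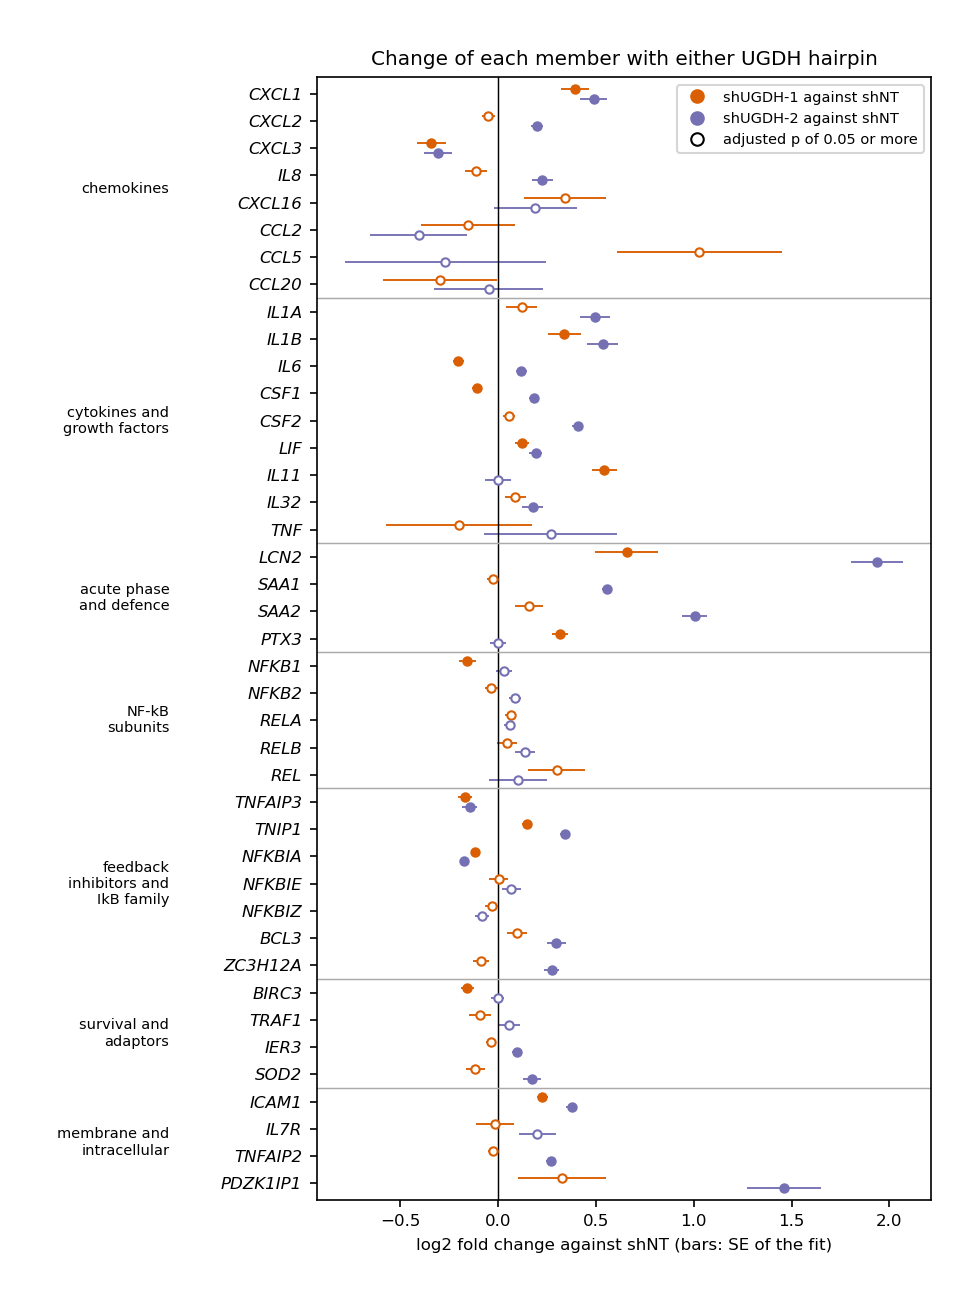
Fold change of each tested member with shUGDH-1 (orange) and shUGDH-2 (violet) against shNT. The horizontal axis is the log2 fold change, bars are the SE of the fit, and open circles mark an adjusted p of 0.05 or more. LCN2, at 0.66 and 1.94, and PDZK1IP1, at 0.33 and 1.46, show the largest shUGDH-2 values, and the subunits lie between -0.16 and 0.30.

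Among the survival factors and adaptors, BIRC3, a ubiquitin ligase of the TNF receptor complex, was at 167, 163 and 157 CPM with shUGDH-1 and 172, 183 and 188 CPM with shUGDH-2, against 188, 176 and 179 CPM with shNT. It fell by 10.4% with shUGDH-1 (log2 -0.16, SE 0.03, adjusted p = 0.000253), where all 3 libraries lay below the controls, and had a log2 value of -0.0023 with shUGDH-2 (adjusted p = 0.976). IER3, an immediate-early gene of cell survival, stood at 1301, 1342 and 1383 CPM with shUGDH-1 and 1461, 1441 and 1514 CPM with shUGDH-2, against 1320, 1409 and 1405 CPM with shNT. It rose by 6.86% with shUGDH-2 (log2 0.10, SE 0.03, adjusted p = 0.0197), which became 0.0624 and 0.0576 without shUGDH-2 replicates 1 and 3 and 0.0785 with DESeq2. The authors' deposited table gave IER3 an adjusted p of 0.0515 with shUGDH-2. With shUGDH-1 its log2 value was -0.04 (adjusted p = 0.348), or -0.07 without shNT replicate 1 (adjusted p = 0.00439). SOD2, the mitochondrial superoxide dismutase, was at 63.1, 58.5 and 65.1 CPM with shUGDH-1 and 72.6, 78.8 and 76.0 CPM with shUGDH-2, against 69.3, 66.1 and 66.1 CPM with shNT, so that the controls lay between the hairpins. SOD2 rose by 12.8% with shUGDH-2 (log2 0.17, SE 0.05, adjusted p = 0.0068), or with an adjusted p of 0.0614 without shUGDH-2 replicate 2 and 0.0508 with DESeq2. The authors' deposited table gave SOD2 an adjusted p of 0.0132 with shUGDH-2. Its log2 value with shUGDH-1 was -0.12 (adjusted p = 0.0829). TRAF1, an adaptor of TNF receptors, had log2 values of -0.10 with shUGDH-1 and 0.06 with shUGDH-2 that did not pass.

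ICAM1, the leukocyte adhesion molecule, rose with both hairpins. It stood at 300.0, 315 and 306 CPM with shUGDH-1 and 345, 332 and 344 CPM with shUGDH-2, against 256, 271 and 262 CPM with shNT, and no group overlapped another. The fold changes were 1.17 with shUGDH-1 (log2 0.23, SE 0.03, adjusted p = 8.58e-10) and 1.30 with shUGDH-2 (log2 0.37, SE 0.03, adjusted p = 6.69e-18). TNFAIP2, a TNF-induced cytoplasmic protein, was at 334, 343 and 347 CPM with shUGDH-1 and 416, 419.5 and 421 CPM with shUGDH-2, against 349.6, 352 and 340.1 CPM with shNT. It rose 1.21-fold with shUGDH-2 (log2 0.27, SE 0.02, adjusted p = 4.09e-14), with shUGDH-1 and shNT overlapping. PDZK1IP1, a small membrane protein also called MAP17, was at 2.23, 3.39 and 3.47 CPM with shUGDH-1 and 5.90, 7.08 and 6.71 CPM with shUGDH-2, against 2.15, 1.96 and 3.07 CPM with shNT. It rose 2.75-fold with shUGDH-2 (log2 1.46, SE 0.19, adjusted p = 1.5e-08) and had a log2 value of 0.33 with shUGDH-1 (SE 0.22, adjusted p = 0.331). IL7R, the interleukin 7 receptor chain, averaged 14.7 ± 0.89 CPM with shUGDH-1 and 17.2 ± 1.71 CPM with shUGDH-2, against 15.0 ± 1.28 CPM with shNT (SD, n = 3 each), and did not pass. PTGS2, the inducible cyclooxygenase, was not tested, with 1, 0 and 0 counts with shUGDH-1 and 7, 2 and 1 counts with shUGDH-2, against 0 counts in each shNT library.

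**Figure D5:**
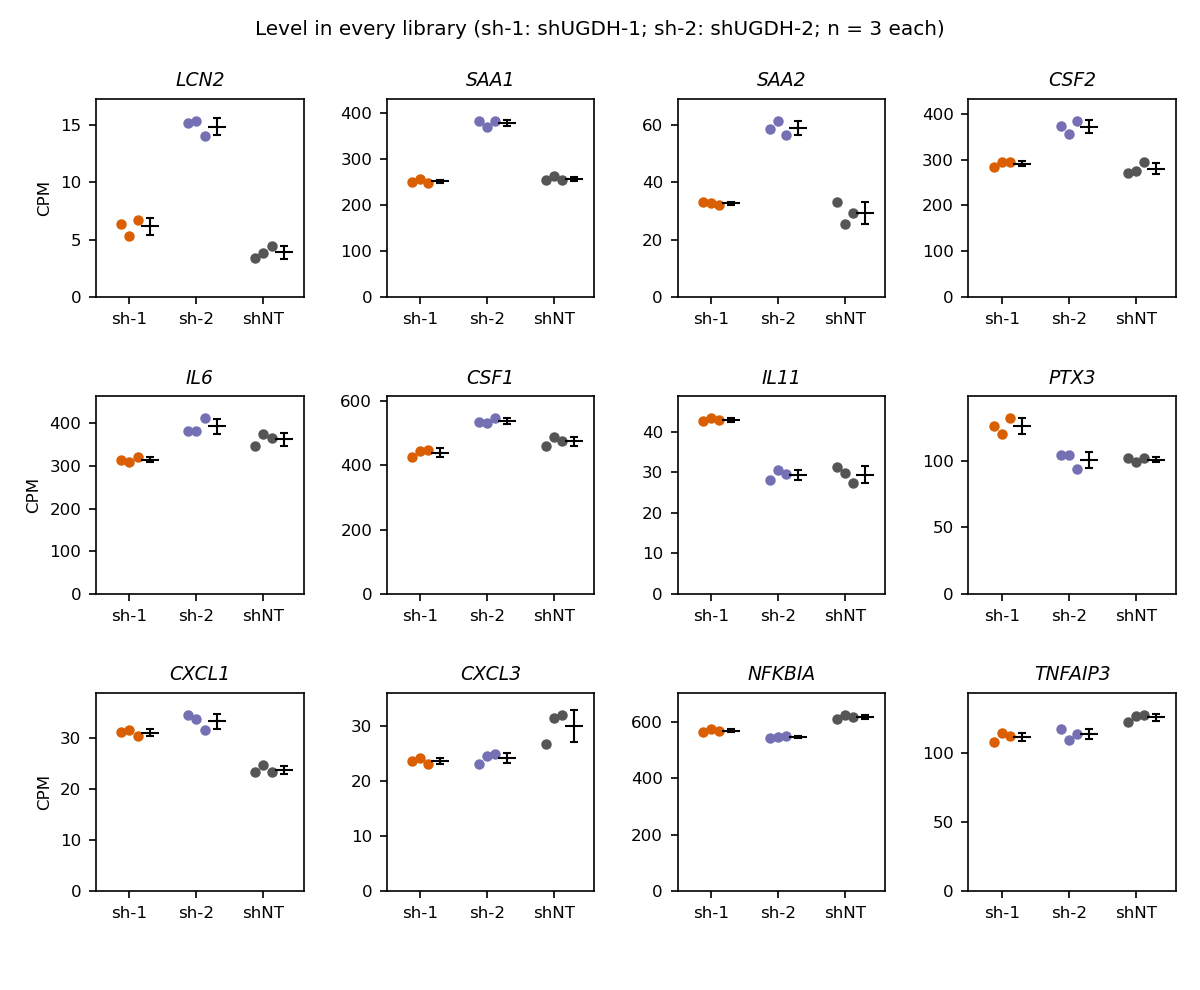
Level of 12 members in every library. The vertical axis of each panel gives CPM from 0, points are libraries of shUGDH-1 (sh-1), shUGDH-2 (sh-2) and shNT, and bars beside them give the mean and SD of 3 libraries. LCN2 differs between all 3 groups, SAA1, SAA2 and CSF2 are higher in shUGDH-2 alone, IL11 and PTX3 in shUGDH-1 alone, the controls of IL6 and CSF1 lie between the hairpins, and CXCL1 lies above and CXCL3, NFKBIA and TNFAIP3 below the controls with both.

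The difference between the hairpins was tested directly. Of the 41 members, 20 were higher and 3 were lower with shUGDH-2 than with shUGDH-1, CCL5 being counted among the 3, where 5.36% of all genes tested were higher and 5.51% lower. The median log2 difference of the members was 0.16, beside -0.0011 over all genes tested. Of the 13 members that passed with shUGDH-2 alone, 12 also differed between the hairpins, IL32 being the exception (log2 difference 0.09, adjusted p = 0.313). All 4 that passed with shUGDH-1 alone differed as well, with IL11 and PTX3 lower and NFKB1 and BIRC3 higher in shUGDH-2 cells. Passing with 1 hairpin and not the other already selects for a difference between them. Over all genes tested, 766 passed with shUGDH-2 alone and 1507 with shUGDH-1 alone. The share of those that differed between the hairpins is not given here. For IL6 the log2 difference was 0.32 (SE 0.03, adjusted p = 1.06e-12) and for CSF1 it was 0.29 (SE 0.02, adjusted p = 1.47e-15). Of the 6 that rose with both hairpins, LCN2, TNIP1 and ICAM1 rose further with shUGDH-2, and CXCL1, IL1B and LIF did not pass the test of the difference. IL1B passed it without shUGDH-1 replicate 3 (log2 difference 0.29, adjusted p = 0.0141). The 3 that fell with both hairpins did not pass it in the fit of all libraries, with log2 differences of 0.03 for CXCL3 (SE 0.08), 0.02 for TNFAIP3 (SE 0.04) and -0.06 for NFKBIA (SE 0.02, adjusted p = 0.0578). Without shNT replicate 1 that of NFKBIA had an adjusted p of 0.049. TRAF1 was higher with shUGDH-2 by 0.15 (adjusted p = 0.0712), with adjusted p-values of 0.0495 without shNT replicate 1 and 0.0475 without shUGDH-2 replicate 1.

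Calls were set beside the promoter letters as a description, over the same shares of all genes as above (10.5% higher and 10.3% lower with shUGDH-1, 8.04% higher and 6.81% lower with shUGDH-2). Of the 18 tested members with a kB decamer, 4 rose and 6 fell in shUGDH-1 cells, while in shUGDH-2 cells 8 rose and 3 fell. Of the 13 tested members with an entry and no decamer, 3 passed with shUGDH-1 and 8 with shUGDH-2, all of them higher. IL8 and ICAM1 are among these 13, since they hold the GGAATTTCC motif outside any decamer.

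Levels of different genes were compared per length, as CPM per kb of the transcript with the longest coding part in GENCODE v29. IER3 stood highest in each group, at 1079 ± 32.9 with shUGDH-1 and 1183 ± 30.3 with shUGDH-2, against 1108 ± 40.3 CPM per kb with shNT (SD, n = 3 each). SAA1 was at 372 ± 5.30 with shUGDH-1 and 559 ± 10.7 with shUGDH-2, against 380.3 ± 6.44 CPM per kb with shNT. CSF2 was at 370.3 ± 7.62 with shUGDH-1 and 472 ± 18.3 with shUGDH-2, against 356 ± 16.0 CPM per kb with shNT. NFKBIA was at 365 ± 3.77 with shUGDH-1 and 351 ± 1.35 with shUGDH-2, against 396 ± 4.71 CPM per kb with shNT. In shUGDH-1 cells these 3 genes did not differ beyond their SDs. In shUGDH-2 cells SAA1 and CSF2 both stood above NFKBIA by more than the SDs, and in shNT cells both stood below it by more than the SDs. Next in shNT cells were IL6 at 237, IL8 at 160.2, CXCL2 at 155, CSF1 at 113 and TNIP1 at 110.1 CPM per kb, of which IL8 and CXCL2, and CSF1 and TNIP1, did not differ beyond their SDs.

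Genes upstream of NF-kB were taken from lists of receptors, adaptors and kinases. The counts of these lists, and of the other inhibitors and targets described after them, stand beside 10.5% of all genes higher and 10.3% lower with shUGDH-1, and 8.04% higher and 6.81% lower with shUGDH-2. Of 14 tested receptors, 1 rose and 2 fell in shUGDH-1 cells, while in shUGDH-2 cells 2 rose and 1 fell. TLR4, the receptor for bacterial lipopolysaccharide, was at 56.5, 54.5 and 52.4 CPM with shUGDH-1 and 55.7, 49.0 and 49.5 CPM with shUGDH-2, against 47.9, 46.8 and 42.8 CPM with shNT. It rose 1.19-fold with shUGDH-1 (adjusted p = 0.000505) and 1.12-fold with shUGDH-2 (adjusted p = 0.0402). TNFRSF1B, TNF receptor 2, fell by 16.8% with shUGDH-1 (adjusted p = 0.00151), TLR6 by 18.7% with shUGDH-1 (adjusted p = 0.0256), and the interleukin 1 receptor IL1R1 rose 1.19-fold with shUGDH-2 (adjusted p = 0.0052). Of 29 adaptors and kinases, 4 rose and 7 fell in shUGDH-1 cells, while in shUGDH-2 cells 5 rose and 5 fell. MAP3K14, the kinase NIK of the non-canonical pathway that processes NFKB2, was at 48.1, 47.9 and 50.4 CPM with shUGDH-1 and 55.5, 57.7 and 53.9 CPM with shUGDH-2, against 67.6, 65.6 and 65.5 CPM with shNT. No group overlapped another, and MAP3K14 fell by 26.6% with shUGDH-1 (adjusted p = 2.37e-10) and by 15.9% with shUGDH-2 (adjusted p = 0.000126). IRAK4, a kinase of interleukin 1 and toll-like receptors, fell by 29.2% with shUGDH-1 (adjusted p = 0.00301) and fell by 22.5% with shUGDH-2 (adjusted p = 0.0374). The kinase gene MAP3K8 rose 1.33-fold with shUGDH-1 (adjusted p = 0.0215) and 1.32-fold with shUGDH-2 (adjusted p = 0.0314). The adaptor gene TICAM1 rose 1.12-fold with shUGDH-1 (adjusted p = 0.0323) and 1.16-fold with shUGDH-2 (adjusted p = 0.00363).

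Of 13 other tested inhibitors, 1 rose and 2 fell with shUGDH-1, and CYLD alone passed with shUGDH-2. TNIP3, a relative of TNIP1, was at 1.46, 1.35 and 2.06 CPM with shUGDH-1 and 3.71, 4.47 and 3.39 CPM with shUGDH-2, against 3.15, 2.46 and 3.41 CPM with shNT, and fell to 0.53 times the shNT level with shUGDH-1 (adjusted p = 0.0033). FAM105B, now named OTULIN, a deubiquitinase of linear chains, fell by 16.6% with shUGDH-1 (adjusted p = 8.29e-05), and SIGIRR, an inhibitory receptor of the interleukin 1 family, rose 1.27-fold (adjusted p = 0.0315). The deubiquitinase gene CYLD fell by 9.5% with shUGDH-2 (adjusted p = 0.037). Of 20 other known NF-kB targets tested, 3 rose and 5 fell in shUGDH-1 cells, while in shUGDH-2 cells 5 rose and 4 fell. The complement gene C3 was at 27.9, 27.1 and 27.6 CPM with shUGDH-1 and 49.5, 43.5 and 43.8 CPM with shUGDH-2, against 16.2, 18.9 and 17.1 CPM with shNT. The 3 groups did not overlap, in the same order as for LCN2, and C3 rose 1.58-fold with shUGDH-1 (adjusted p = 1.1e-09) and 2.62-fold with shUGDH-2 (adjusted p = 3.9e-24). PLAU, the urokinase gene, fell by 11.9% with shUGDH-1 (adjusted p = 2.07e-12) and fell by 4.66% with shUGDH-2 (adjusted p = 0.00433). TGM2, transglutaminase 2, rose by 3.96% with shUGDH-1 (adjusted p = 0.00385) and by 10.2% with shUGDH-2 (adjusted p = 5.6e-11). KYNU, the gene of kynureninase, fell to 0.52 times the shNT level with shUGDH-1 (adjusted p = 0.000184) and rose 1.36-fold with shUGDH-2 (adjusted p = 0.0404).

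Some members share transcribed positions with another gene, and the use of strand in counting is not given in the sources used here. In GENCODE v29, CXCL16, IL6, LIF, RELA, IER3, SOD2 and ICAM1 have exons that overlap exons of a gene on the opposite strand, so reads of both cannot be told apart if strand was not used. IL32, SAA1, SAA2, REL and SOD2 overlap exons of a gene on the same strand, which for SAA2 includes the readthrough gene SAA2-SAA4, and no strand setting separates those reads. In the authors' deposited tables, 8 members were higher and 7 lower with shUGDH-1 among 38 with an adjusted p, and 18 were higher and 3 lower with shUGDH-2 among 39.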

How the data were processed

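RNA was measured by mRNA sequencing (NuGen Ovation Universal Plus libraries, NextSeq), per the labels' protocols. The submitters' processing notes name STAR, DESeq, DESeq2 and the hg19 build. How reads were assigned to genes, by which annotation and with what strand setting, is not stated there. The authors deposited unnormalized read counts per gene in 1 table for all 9 libraries. They also deposited a table for each hairpin against shNT with the log2 fold change with its SE, and the p-value with its adjusted p-value.

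The 43 members and all gene lists were chosen with earlier results of these data known. From the counts, genes were filtered with filterByExpr over the 3 groups, which left 12546 of 23710 genes with 99.93% of the counts. TMM factors ran from 0.9968 to 1.003. A robust quasi-likelihood model was fitted in edgeR 4.0.16 (R 4.3.3) over all 9 libraries, with Benjamini-Hochberg adjustment over all genes tested and a threshold of 0.05. The 3 contrasts set each hairpin against shNT and the hairpins against each other (shUGDH-2 over shUGDH-1). The common biological coefficient of variation was 0.0202. The scripts were tested on simulated data. Library totals of 9249738 to 13328002 counts limit precision for genes of few CPM. Alternatives were other scalings, no filter, DESeq2 1.42.0, the 2 groups compared alone, a replicate block, and leaving out each library. Rows with date-like names (28, holding 0.232% of counts) name no member. Every member is accounted for. Of each pathway list, up to 4 tested genes that averaged 1 CPM or more in some group were named, taking those called with both hairpins in 1 direction before those called with 1, by the larger absolute log2 fold change.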

Additional observations from a re-analysis of the deposited data

How the results depend on the processing

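Over 15 alternatives, 55 of 62 member values past the threshold stayed past it, 7 were lost in at least 1 alternative and 0 changed sign, and 11 of 61 values not past it passed in at least 1. Leaving out single libraries gave 8 to 9 higher and 7 to 8 lower members in shUGDH-1 cells, 19 to 23 higher and 3 lower in shUGDH-2 cells, and 19 to 21 higher and 2 to 4 lower between the hairpins. DESeq2 gave 8 and 7, 18 and 3, and 20 and 2. The members' median log2 value ranged over the left-out libraries from -0.0311 to 0.0012 with shUGDH-1, where it turned positive without shNT replicate 3, 0.149 to 0.189 in shUGDH-2 cells, and 0.127 to 0.182 between the hairpins; the cause was not tested. Same-numbered libraries deviated together in 1 of 9 pairs at a correlation over 0.1 (-0.112 to 0.209). Other-numbered libraries did so in 2 of 18 pairs (-0.156 to 0.152). No pairing by number was seen, but 3 libraries a group cannot exclude one. A replicate block gave 8 higher and 8 lower in shUGDH-1 cells, 21 and 3 in shUGDH-2 cells, and 20 and 3 between the hairpins, with medians of -0.0103, 0.174 and 0.156; the added lower call was IL8 with shUGDH-1 (log2 -0.11, adjusted p = 0.0273). Over all genes, DESeq2 called 816 higher and 725 lower in shUGDH-1 cells, where edgeR called 1318 and 1287, 570 and 363 in shUGDH-2 cells, where edgeR called 1009 and 855, and 392 and 364 between the hairpins, where edgeR called 672 and 691. Without shUGDH-2 replicate 1, edgeR called 496 lower with shUGDH-2. Depth limits CCL5, TNF, CCL20 and PTGS2, and PTGS2 passed as higher with shUGDH-2 only in the fit with no filter on low counts.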

Other observations

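Genes of AP-1, C/EBP and STAT3 factors, which are known to act on the same promoters as NF-kB, were also compared. Of 12 tested, 1 was higher and 5 were lower with shUGDH-2 than with shUGDH-1, where 5.36% of all genes tested were higher and 5.51% lower. Against shNT, 5 rose and 1 fell in shUGDH-1 cells, while in shUGDH-2 cells 4 rose and 4 fell. For shUGDH-1, the shares of all genes tested were 10.5% higher and 10.3% lower than in shNT. For shUGDH-2, these shares were 8.04% and 6.81%. FOS, an immediate-early AP-1 subunit, was at 89.4, 97.3 and 94.7 CPM with shUGDH-1 and 64.0, 61.0 and 63.7 CPM with shUGDH-2, against 74.6, 81.3 and 72.6 CPM with shNT. The controls lay between the hairpins, and FOS rose 1.23-fold with shUGDH-1 (log2 0.30, SE 0.05, edgeR adjusted p = 4.73e-07) and fell by 0.28 on the log2 scale with shUGDH-2 (SE 0.05, adjusted p = 1.77e-05). ATF3 and FOSL2, chosen after their values were seen, also had opposite calls. ATF3, a stress-induced factor, was at 167, 179.9 and 179 CPM with shUGDH-1 and 133, 141 and 139 CPM with shUGDH-2, against 149, 152 and 155 CPM with shNT, and changed in the directions of FOS (adjusted p = 4.23e-06 with shUGDH-1 and 0.0025 with shUGDH-2). FOSL2 fell with shUGDH-1 (log2 -0.06, adjusted p = 0.0448) and rose with shUGDH-2 (log2 0.08, adjusted p = 0.0128). FOSB, a relative of FOS, rose 1.25-fold with shUGDH-1 (adjusted p = 1.47e-12) and had a log2 value of 0.02 with shUGDH-2 (adjusted p = 0.695). JUND rose with both hairpins, 1.46-fold with shUGDH-1 (adjusted p = 6.89e-05) and 1.48-fold with shUGDH-2 (adjusted p = 9.39e-05), as did SOCS3, a feedback inhibitor of STAT3 signalling, 1.23-fold with shUGDH-1 (adjusted p = 7.8e-05) and 1.27-fold with shUGDH-2 (adjusted p = 1.11e-05). JUN and JUNB, chosen after their values were seen, did not pass with shUGDH-1 and fell with shUGDH-2. Their log2 values with shUGDH-2 were -0.23 for JUN (adjusted p = 3.26e-08) and -0.10 for JUNB (adjusted p = 0.0161).

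Of 17 receptor genes for the secreted members, 8 were tested. With shUGDH-1, 0 rose and 2 fell, where 10.5% of all genes tested rose and 10.3% fell. With shUGDH-2, 0 rose and 0 fell, where 8.04% rose and 6.81% fell. CXCR1 and CXCR2, the receptors of IL8 and the CXCL ligands, and SLC22A17, described as a receptor of LCN2, were at 0 in all 9 libraries. IL6ST, the shared chain for IL6, LIF and IL11, chosen after its values were seen, was at 398, 370.0 and 374 CPM with shUGDH-1 and 394.5, 425 and 403.5 CPM with shUGDH-2, against 468, 415 and 417 CPM with shNT, and did not pass (log2 -0.19, SE 0.06, adjusted p = 0.0578 with shUGDH-1). LIFR fell with shUGDH-1 (log2 -0.18, SE 0.05, adjusted p = 0.00988), as did CSF1R at 2.77, 2.18 and 3.15 CPM with shUGDH-1 against 3.53, 4.93 and 3.24 CPM with shNT (log2 -0.55, SE 0.21, adjusted p = 0.0467). Gene by gene, the alternatives were compared for members alone, so the dependence of these receptor values on them is not given.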
